A study of Mus musculus with 47 samples.

Results

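The 34 genes described here encode the glutamate receptors of the mouse and the proteins that travel with them. They were chosen by name as the rows of the deposited count table for the AMPA, NMDA, kainate and delta receptor subunits, the metabotropic receptors, the transmembrane AMPA receptor regulatory proteins (TARPs), the cornichons and the Neto proteins. All 34 were found among the 48795 genes of the table, and 33 of them passed the filter on low counts that left 19193 genes for testing. Grm6, a metabotropic receptor best known from retinal bipolar cells, had 0 to 2 reads per library and was not tested.

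Striatum was taken from 47 mice of the C57BL strain at 6 months of age, and its RNA was sequenced as stranded libraries. The groups were heterozygous Q140 knock-in mice (8), whose single mutant Htt allele bears a long CAG repeat, a model of Huntington's disease, Q140 mice heterozygous for a Ccdc82 mutation (Q140 Ccdc82+/-, 8), Q140 mice homozygous for it (Q140 Ccdc82-/-, 7), and, without the Q140 allele, Ccdc82+/- (8), Ccdc82-/- (8) and wild type (8) mice. Each group held 4 females and 4 males, except Q140 Ccdc82-/-, which held 3 females and 4 males. The labels do not say how the Ccdc82 allele was made, and each label is taken here to stand for 1 mouse.

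Glutamate is the transmitter of the cortical and thalamic axons that drive the medium spiny neurons, the output cells of the striatum. AMPA, NMDA and kainate receptors are ion channels built from several subunits, and auxiliary proteins such as TARPs, cornichons and Netos set how many reach the synapse and how fast they close. Metabotropic receptors signal through G proteins instead, on the receiving cell, on axon terminals and on glia. Loss of the transcripts that define medium spiny neurons is the best known RNA change of Huntington's disease models.

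Libraries held 41.3 to 61.7 M counts, with a median of 47.7 M. Ccdc82, the targeted gene, had a median of 4.47 counts per M counts (CPM) in Q140 Ccdc82-/- and 4.39 in Ccdc82-/- striata, 8.56 in Q140 Ccdc82+/- and 8.49 in Ccdc82+/-, and 11.6 in Q140 and 12.3 in wild type. CPM were scaled with edgeR's TMM factors, its trimmed mean of M values. Striatal identity was clear from Ppp1r1b, which encodes DARPP-32 and had a median of 891 FPKM in wild type, while 8 of the 12 cortical markers, Slc17a7, Tbr1 and Neurod6 among them, were at most 1.32 FPKM in every library. Of the other 4, Cux2, Rorb and Tshz3 reached at most 1.96 FPKM, and Lamp5 had 28.7 to 46.2 FPKM. A single library, Ccdc82-/- male 1, stood apart by 2.89 log2 units in a list of choroid plexus markers. Another, wild type female 4, lay 0.78 log2 units above its group in cortical markers. The counts of members that rose or fell were the same without the choroid plexus library. Without the cortical library only Grik1 lost its call in Q140 against wild type, at an edgeR adjusted p of 0.0557.

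The levels of the members in wild type striatum covered a wide range. FPKM, the authors' values per length of gene and per M counts, allow genes to be compared with each other. By their wild type medians, 6 members were at or over 50 FPKM, 17 lay between 10 and 50, 6 between 1 and 10, and 5 under 1. The cornichon Cnih2 was the highest at 117.6 FPKM (103.8 to 122.7), followed by Gria1 at 94.0, Grin1 at 79.5, Gria2 at 66.1, Grik5 at 58.0 and Grm5 at 52.2 FPKM. Cnih2, Gria1 and Grin1 were each separate from the next gene in the order in all 8 wild type libraries, whereas from Gria2 down to Cacng8 each neighbour in the order overlapped the next. Among the low members were Grin2d at 1.21, Grin3a at 1.15, Grm8 at 0.758, Grik1 at 0.383, Grm2 at 0.256 and Grin3b at 0.231 FPKM. Exact ranks within the overlapping stretch are not separable at the spread between mice.

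**Figure D1:**
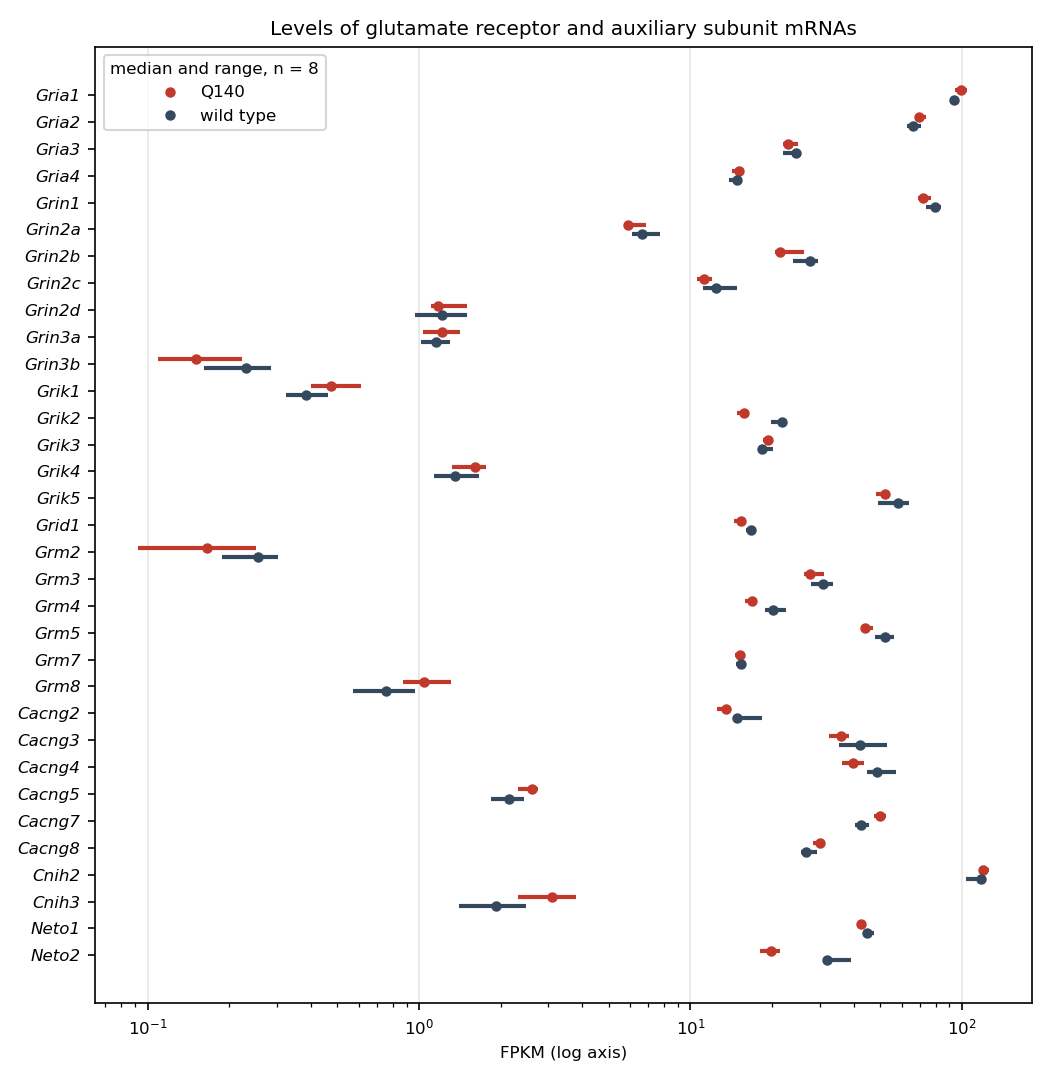
FPKM of the 33 tested members in Q140 and wild type striatum on a log axis, as the median (point) and range (line) over 8 libraries each, in the order of the receptor families. Cnih2, Gria1 and Grin1 lie highest in wild type, and Grin3b at 0.231 FPKM lies lowest.

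Most of the tested receptor genes differed between Q140 and wild type striatum, and most of those that differed were lower in Q140. In Q140 against wild type 18 members fell, 6 rose and 9 did not pass the test, while 34.7% of all tested genes passed, 16.5% of all genes as lower and 18.2% as higher. The largest fall was in Neto2, a kainate receptor auxiliary protein, and the largest rise in Cnih3, a cornichon. The median log2 change of the 33 members was -0.15, against -0.00051 for all genes. Changes are given as log2 differences with their standard error (SE), and a gene passed when the Benjamini-Hochberg adjusted p of edgeR's quasi-likelihood test over all 19193 genes was under 0.05.

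The comparison was repeated on both Ccdc82 backgrounds, in mice that share no library with it or with each other. In Q140 Ccdc82+/- against Ccdc82+/- 18 members fell and 6 rose, where 35% of all genes passed. In Q140 Ccdc82-/- against Ccdc82-/- 17 fell and 8 rose, where 33.2% of all genes passed. Over all 3 comparisons 16 members fell each time and 4 rose each time, Grm8, Cnih3, Cacng5 and Cacng7, while 11.3% of all tested genes fell each time and 11.8% rose each time. Tested on the average over the 3 backgrounds, 20 members fell, 8 rose and 5 did not pass, where 54.3% of all genes passed, 25.5% as lower and 28.8% as higher. Scaling matters for the balance. With the authors' FPKM, which carry no TMM step, 16 members fell and 10 rose in Q140 Ccdc82+/- against Ccdc82+/-, and 13 fell and 10 rose in Q140 Ccdc82-/- against Ccdc82-/-. The FPKM shares of all genes in these comparisons are not given here, so the counts are not read as a result about the members. Under FPKM the split of all genes in Q140 against wild type moved to 5875 higher and 2079 lower, against 3485 higher and 3170 lower with TMM. With FPKM, 10 changes of members passed as higher that had not passed with counts: Gria2 and Grik3 on both Ccdc82 backgrounds and in the average, Gria1 and Grik4 against wild type, and Cacng8 and Grik1 on the Ccdc82+/- background.

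**Figure D2:**
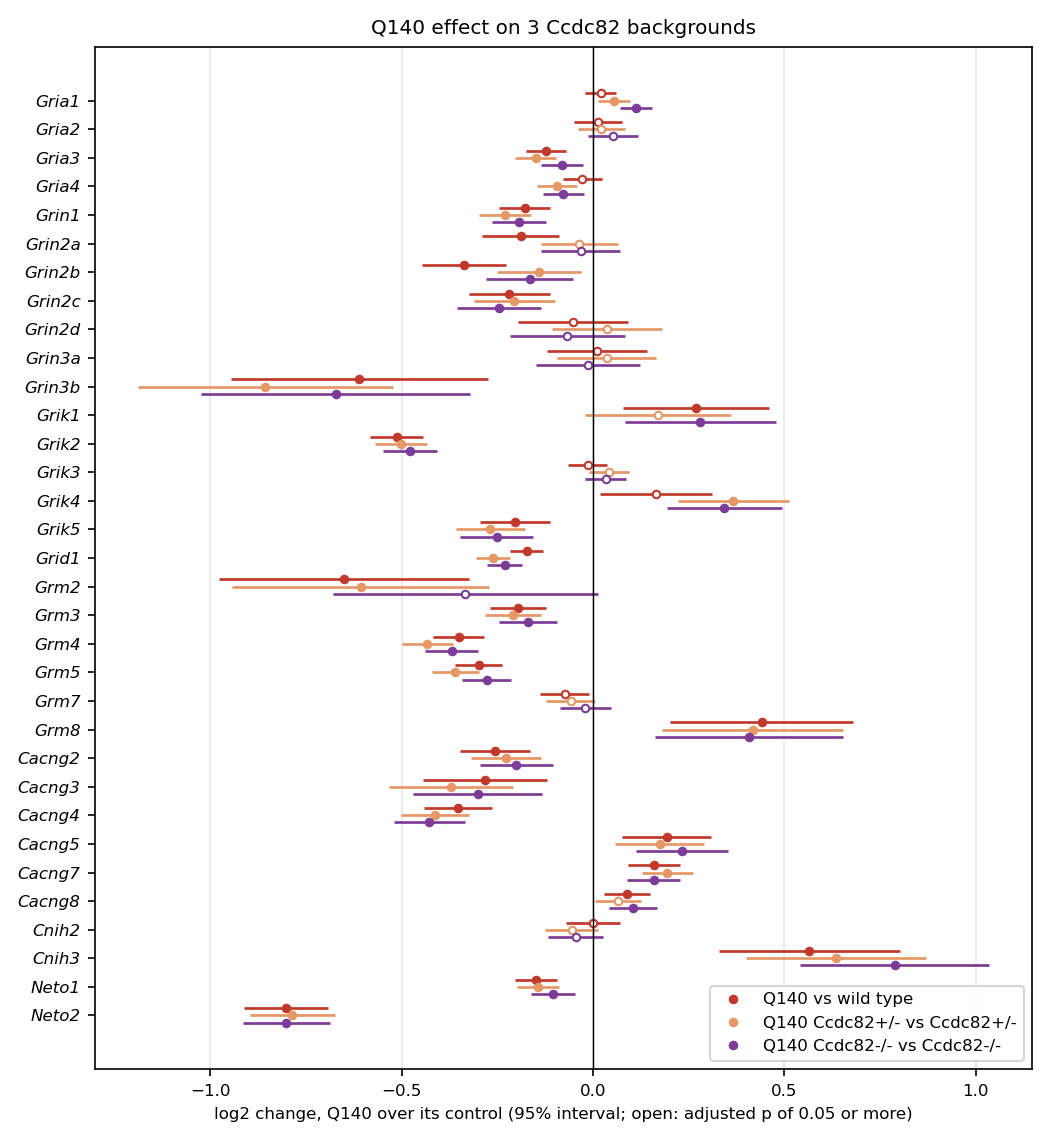
Log2 change of the 33 tested members in Q140 against wild type, Q140 Ccdc82+/- against Ccdc82+/- and Q140 Ccdc82-/- against Ccdc82-/-, with 95% intervals from the edgeR fit. Neto2, Grik2, Cacng4, Grm4 and Grm5 lie below 0 in each comparison, and Cnih3 and Grm8 above 0.

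The AMPA receptor subunits, which form the channel of fast transmission, moved little. In Q140 against wild type 1 of the 4 fell and none rose. Gria3 was the one that fell, by 0.12 ± 0.03 on the log2 scale (adjusted p = 0.000204), and it fell on both Ccdc82 backgrounds too, by 0.15 and 0.08. The change of 0.08, on the Ccdc82-/- background, did not pass under 8 of 16 alternatives, FPKM among them. Gria2, whose subunit closes the channel to calcium, had medians of 1049 CPM in Q140 and 1067 CPM in wild type and passed in none of the 3 comparisons with counts, but as higher with FPKM on both Ccdc82 backgrounds.

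Gria1 (chromosome 11, 57011387 to 57330244, GRCm38) is the AMPA subunit with the highest level. It ranged from 562 to 627 CPM with a median of 589 in Q140 and from 563 to 600 CPM with a median of 584 in wild type, so the groups overlapped almost wholly (log2 change 0.02 ± 0.02, adjusted p = 0.487), although the change passed as higher with FPKM. On the Ccdc82-/- background it ranged from 585 to 621 CPM in Q140 Ccdc82-/- and from 539 to 573 in Ccdc82-/-, with no overlap, and rose by 0.11 ± 0.02 (adjusted p = 3.29e-05). On the Ccdc82+/- background the rise was 0.05 ± 0.02 (adjusted p = 0.0342). That small rise did not pass under 6 of 16 alternatives: RLE size factors, no filter on low counts, the plate column as a factor, females only, males only and the fit of only the groups compared. The test of whether the Q140 effect on Gria1 differed by Ccdc82 genotype is given with the Ccdc82 comparisons.

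Gria4 lies on chromosome 9 (4417896 to 4796234), 8.451 Mb from Ccdc82, the nearest of the members. It ranged from 87.9 to 96.3 CPM (median 93.8) in Q140 and from 90.3 to 99.6 CPM (median 95.3) in wild type, overlapping ranges with no call (adjusted p = 0.438). It fell on the Ccdc82+/- background by 0.09 ± 0.03 and on the Ccdc82-/- background by 0.08 ± 0.03. Neither of these 2 changes passed with FPKM, and they failed under 5 and 7 of 16 alternatives in all. As shares of the summed FPKM of the 4 subunits, a description with no test, Gria1 had a median of 48.0% in Q140 and 47.3% in wild type, and Gria3 had 11.2% in Q140 and 12.1% in wild type.

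The TARPs carry AMPA receptors to the synapse and slow their closing, and here they split by gene. Cacng2, Cacng3 and Cacng4 fell in all 3 comparisons, while Cacng5 and Cacng7 rose in all 3 and Cacng8 rose in 2. Cacng2, Cacng3, Cacng4 and Cacng8 are known as type I TARPs and Cacng5 and Cacng7 as type II, so that the 3 that fell are all of type I and Cacng8 is a type I member that did not fall. The summed FPKM of the 6 moved less than its parts, with medians of 171 in Q140 and 178 in wild type.

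Cacng4 (chromosome 11, 107732357 to 107794557) is the TARP with the highest level per length in wild type. It ranged from 126 to 153 CPM with a median of 141 in Q140, against 162 to 215 CPM with a median of 178 in wild type. Every Q140 library lay below every wild type library, and the same held on both Ccdc82 backgrounds, with 120 to 149 CPM in Q140 Ccdc82+/- against 169 to 193 in Ccdc82+/-, and 125 to 154 in Q140 Ccdc82-/- against 170 to 199 in Ccdc82-/-. The log2 changes were -0.35 ± 0.04, -0.41 ± 0.04 and -0.43 ± 0.05, with adjusted p-values of 7.79e-09, 1.25e-10 and 1.66e-10. Cacng3 (chromosome 7, 122670492 to 122769393) varied more, with 88.0 to 104.9 CPM (median 97.9) in Q140 against 98.6 to 154.8 CPM (median 119.7) in wild type. The groups overlapped, with 4 of 8 Q140 libraries above the lowest wild type library, and it fell by 0.28 ± 0.08 (adjusted p = 0.00478), and by 0.37 and 0.30 on the Ccdc82+/- and Ccdc82-/- backgrounds. Cacng2, known as stargazin, fell by 0.26 ± 0.05 (adjusted p = 1.16e-05).

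Cacng7 ranged from 114.2 to 124.8 CPM in Q140 and from 100.3 to 113.9 CPM in wild type, just without overlap, and rose by 0.16 ± 0.03 (adjusted p = 0.000126). Cacng5 rose by 0.19 ± 0.06 (adjusted p = 0.00683), with medians of 9.87 CPM in Q140 and 8.57 CPM in wild type. Cacng8 rose by 0.09 ± 0.03 (adjusted p = 0.0173), and its change of 0.07 on the Ccdc82+/- background did not pass. Position does not sort these changes into one pattern. Cacng7 and Cacng8 are neighbours on chromosome 7, 22.46 kb apart, and both rose, while Cacng4 and Cacng5 are 80.05 kb apart on chromosome 11, and Cacng4 fell where Cacng5 rose.

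The makeup of the TARP pool, as shares of summed FPKM, differed with the Q140 allele. Cacng4 held 21.1 to 24.6% (median 23.3%) in Q140 and 26.1 to 29.0% in wild type. Cacng7 held 27.6 to 30.7% (median 29.1%) in Q140 and 20.5 to 26.6% (median 24.2%) in wild type. Neither pair of ranges overlapped, and Cacng4 was the larger share in wild type while Cacng7 was the larger in Q140. The same order held on both Ccdc82 backgrounds, where Cacng7 had medians of 30.2% in Q140 Ccdc82+/- and 23.9% in Ccdc82+/-, and of 29.3% in Q140 Ccdc82-/- and 24.9% in Ccdc82-/-. Shares within a library do not depend on its scaling, and were not tested.

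**Figure D3:**
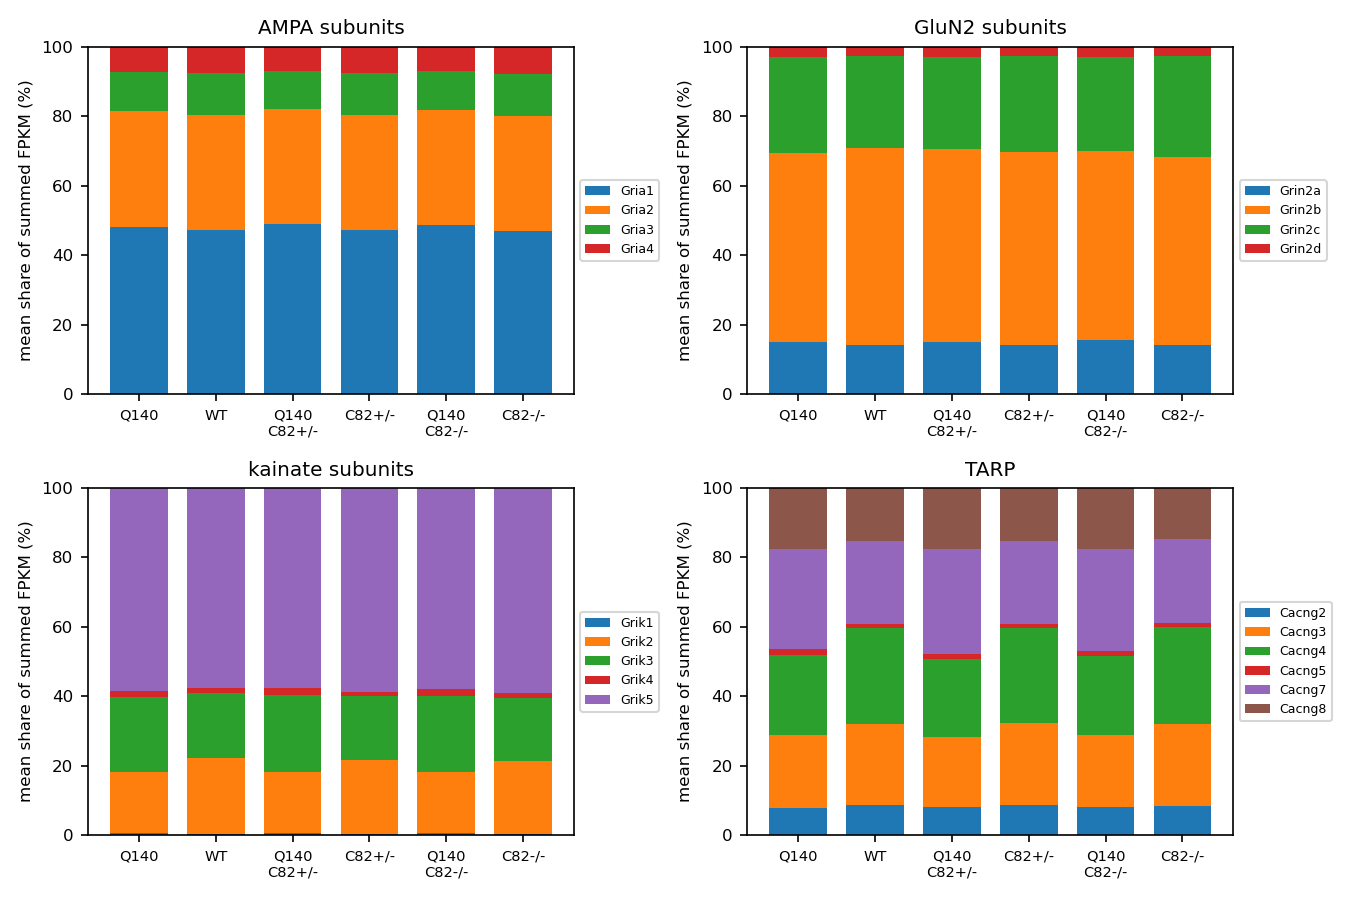
Mean share of each gene in the summed FPKM of the AMPA, GluN2, kainate and TARP genes, in percent, for each of the 6 groups, with Q140 groups left of their controls (C82 stands for Ccdc82). In the TARP panel the Cacng4 block is smaller and the Cacng7 block larger in each Q140 group than in its control.

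Cornichons bind AMPA receptors, help them leave the endoplasmic reticulum and slow their closing. Cnih2 (chromosome 19, 5092868 to 5098521), the member with the highest level of all, ranged from 142 to 155 CPM in Q140 and from 131 to 154 CPM in wild type, and passed in none of the 3 comparisons (adjusted p = 0.999 in Q140 against wild type). Its relative Cnih3 (chromosome 1, 181352628 to 181460641) was far lower and rose. Cnih3 had 6.27 to 10.4 CPM with a median of 8.33 in Q140, against 3.88 to 7.04 CPM with a median of 5.35 in wild type. The 2 groups overlapped in part, and on the Ccdc82+/- background they separated, with 6.86 to 10.5 CPM in Q140 Ccdc82+/- against 4.23 to 6.45 in Ccdc82+/-. Log2 changes were 0.57 ± 0.12, 0.63 ± 0.12 and 0.79 ± 0.12, with adjusted p-values of 0.000143, 2.2e-05 and 1.35e-06. Its share of the cornichon pair stayed small, with a median of 2.53% in Q140 and 1.74% in wild type.

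The stretch before the start of Cnih3 is shown because the gene had the largest rise among the members. It is the 250 bases upstream of the RefSeq start in GRCm38.p6, chr1:181352378-181352627, on the plus strand, 5′ to 3′, and capitals mark 1 E-box (CACGTG) and 1 GC box (GGGCGG, here on the opposite strand).
Cnih3: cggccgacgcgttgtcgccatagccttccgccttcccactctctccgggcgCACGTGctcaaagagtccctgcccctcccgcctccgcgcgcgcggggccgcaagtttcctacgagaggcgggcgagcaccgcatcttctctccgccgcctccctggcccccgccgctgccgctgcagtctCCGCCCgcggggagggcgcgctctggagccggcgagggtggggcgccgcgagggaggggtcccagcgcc
Both strands were searched for 6 motifs. The E-box was present in 6.02% of the 32851 upstream windows of all genes and the GC box in 32.7%. Among the 28 windows of the 23 members that the RefSeq table holds, 14 had a GC box and 2, those of Cnih3 and Grin1, an E-box. The CRE motif TGACGTCA was in none of the member windows and in 1.55% of all, and the EGR motif GCGNGGGCG was in that of Gria4 alone and in 4.70% of all. The AP1 motif TGANTCA was in windows of Cacng5, Grin3b and Grm8 and in 6.75% of all, and the NRF1 motif in none and in 0.782% of all. A match is a run of letters and does not show that a factor binds.

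NMDA receptors need the Grin1 subunit, which binds glycine, and a GluN2 subunit, which binds glutamate and sets the kinetics. Of the 7 members, 5 fell in Q140 against wild type, none rose and 2 did not pass, with a median change of -0.19. Under FPKM 5 also fell in that comparison, with a median of -0.13. Grin1, Grin2b, Grin2c and Grin3b fell in all 3 comparisons, while Grin2d and Grin3a passed in none.

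Grin1 (chromosome 2, 25291181 to 25319187) ranged from 648 to 738 CPM with a median of 684 in Q140, against 729 to 832 CPM with a median of 777 in wild type. The groups overlapped only at their edges, and Grin1 fell by 0.18 ± 0.03 (adjusted p = 2.52e-05), and by 0.23 and 0.19 on the Ccdc82+/- and Ccdc82-/- backgrounds. Grin2b, the main GluN2 subunit here by FPKM, fell by 0.34 ± 0.05 against wild type (adjusted p = 2.51e-06) but by 0.14 ± 0.05 and 0.17 ± 0.06 on the 2 Ccdc82 backgrounds (adjusted p = 0.0386 and 0.0192), and these smaller falls did not pass with FPKM. Grin2a fell by 0.19 ± 0.05 against wild type (adjusted p = 0.00214) and had changes of -0.04 and -0.03 on the Ccdc82 backgrounds, which did not pass. Grin2c, a subunit that astrocytes also carry in the forebrain, fell by 0.22 ± 0.05, 0.21 ± 0.05 and 0.25 ± 0.05.

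Grin3b (chromosome 10, 79970715 to 79977190) had one of the largest changes at one of the lowest levels. It had 0.354 to 0.713 CPM with a median of 0.489 in Q140, against 0.549 to 0.985 CPM with a median of 0.774 in wild type, and the groups overlapped. In reads this was 16 to 38 per library in Q140 and 26 to 44 in wild type. The log2 changes were -0.61 ± 0.17, -0.86 ± 0.17 and -0.67 ± 0.17, with adjusted p-values of 0.00307, 3.9e-05 and 0.00193. Within the GluN2 group the shares of summed FPKM shifted little, with Grin2b at a median of 53.8% in Q140 and 57.6% in wild type and overlapping ranges. The ratio of Grin2a to Grin2b FPKM was 0.240 to 0.297 (median 0.278) in Q140 and 0.236 to 0.262 (median 0.244) in wild type, again with overlap.

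Kainate receptors are built from Grik1, Grik2 and Grik3, which can form channels on their own, and from Grik4 and Grik5, which bind glutamate tightly but need a partner of the first kind. The subunits followed 3 patterns. Grik2 and Grik5 fell in all 3 comparisons, Grik3 passed in none with counts but as higher on both Ccdc82 backgrounds with FPKM, and Grik1 and Grik4 rose in 2 comparisons each. The family's median change against wild type was -0.01, which is that of Grik3, and under FPKM it was 0.04.

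Grik2 (chromosome 10, 49094833 to 49788766) had 119 to 134 CPM with a median of 128 in Q140, against 169 to 191 CPM with a median of 184 in wild type. The gap between the groups was wider than the range within either. The groups were also separate on the other backgrounds, with 120 to 142 CPM in Q140 Ccdc82+/- against 166 to 191 in Ccdc82+/-, and 113 to 142 in Q140 Ccdc82-/- against 171 to 189 in Ccdc82-/-. The log2 changes were -0.51 ± 0.03, -0.50 ± 0.03 and -0.48 ± 0.04, with adjusted p-values of 2.6e-17, 3.84e-17 and 9.82e-16. Grik3 had medians of 169 CPM in Q140 and 170 CPM in wild type. The ratio of Grik2 to Grik3 FPKM was accordingly 0.799 to 0.865 in Q140 and 1.08 to 1.26 in wild type, so that Grik2 was the higher of the 2 in every wild type library and Grik3 in every Q140 library.

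Grik5 (chromosome 7, 25009849 to 25072346), the kainate subunit with the highest level, ranged from 242 to 277 CPM with a median of 265 in Q140, against 268 to 337 CPM with a median of 305 in wild type. The ranges overlapped there and not at all on the 2 Ccdc82 backgrounds. It fell by 0.20 ± 0.05 (adjusted p = 0.000315), 0.27 and 0.25 in the 3 comparisons. Grik4 had a change of 0.17 ± 0.07 against wild type that did not pass with counts (adjusted p = 0.0733), and rose by 0.37 ± 0.07 and 0.34 ± 0.07 on the Ccdc82+/- and Ccdc82-/- backgrounds. Grik1, with medians of 2.86 CPM in Q140 and 2.42 CPM in wild type, rose by 0.27 ± 0.09 against wild type (adjusted p = 0.0229) and by 0.28 ± 0.10 on the Ccdc82-/- background, and had a change of 0.17 ± 0.10 on the Ccdc82+/- background that did not pass.

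The Neto proteins attach to kainate receptors and slow their desensitization, and Neto1 is also found with NMDA receptors. Both fell in all 3 comparisons, but to different depths. Neto2 (chromosome 8, 85636588 to 85700924) had 104 to 124 CPM with a median of 116 in Q140, against 183 to 243 CPM with a median of 195 in wild type. Q140 Ccdc82+/- striata had 105 to 131 CPM against 183 to 220 in Ccdc82+/-, and Q140 Ccdc82-/- striata had 98.6 to 132.9 CPM against 189.3 to 214.3 in Ccdc82-/-. On every background all libraries of the Q140 group lay below all libraries of its control. The log2 changes were -0.80 ± 0.05, -0.79 ± 0.05 and -0.80 ± 0.06, with adjusted p-values of 5.47e-16, 7.22e-16 and 2.05e-15.

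Neto1 ranged from 143 to 149 CPM in Q140, against 156 to 172 CPM in wild type. These ranges did not overlap, while those on both Ccdc82 backgrounds did. Its falls were 0.15 ± 0.03, 0.14 ± 0.03 and 0.10 ± 0.03, and the last of them did not pass with FPKM. Neto2 made up 29.9 to 33.7% of the summed FPKM of the pair in Q140 and 40.7 to 46.3% in wild type, and likewise 30.4 to 33.5% in Q140 Ccdc82+/- against 40.9 to 43.9% in Ccdc82+/-.

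The upstream windows of Neto2 and Grik2 are shown because these 2 kainate receptor genes had the smallest adjusted p of the members in Q140 against wild type and fell on every background. Both are the 250 bases before a RefSeq start in GRCm38.p6 on the minus strand, printed 5′ to 3′ in the direction of the gene, with capitals for any of the 6 motifs. The Neto2 window is chr8:85700925-85701174 and the Grik2 window chr10:49788755-49789004.
Neto2: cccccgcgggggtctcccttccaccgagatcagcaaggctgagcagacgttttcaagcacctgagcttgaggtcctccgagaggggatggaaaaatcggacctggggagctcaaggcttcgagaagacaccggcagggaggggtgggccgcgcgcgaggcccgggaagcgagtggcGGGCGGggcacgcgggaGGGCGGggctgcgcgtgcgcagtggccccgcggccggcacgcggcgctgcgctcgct
Grik2: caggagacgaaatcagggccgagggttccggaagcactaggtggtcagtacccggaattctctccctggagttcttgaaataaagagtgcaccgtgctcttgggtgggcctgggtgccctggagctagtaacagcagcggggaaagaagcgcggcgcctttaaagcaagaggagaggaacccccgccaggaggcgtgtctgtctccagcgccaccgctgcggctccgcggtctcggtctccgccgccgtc
Neto2 holds 2 GC boxes and Grik2 holds none of the 6 motifs, so the pair shares no searched motif in these windows. Their GC contents are 72.0% and 62.8%, where the median of all windows is 52.4%. Neto2 has a second RefSeq start whose window, chr8:85691010-85691259, is not printed. That window holds none of the 6 motifs and has a GC content of 42.4%.

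**Figure D4:**
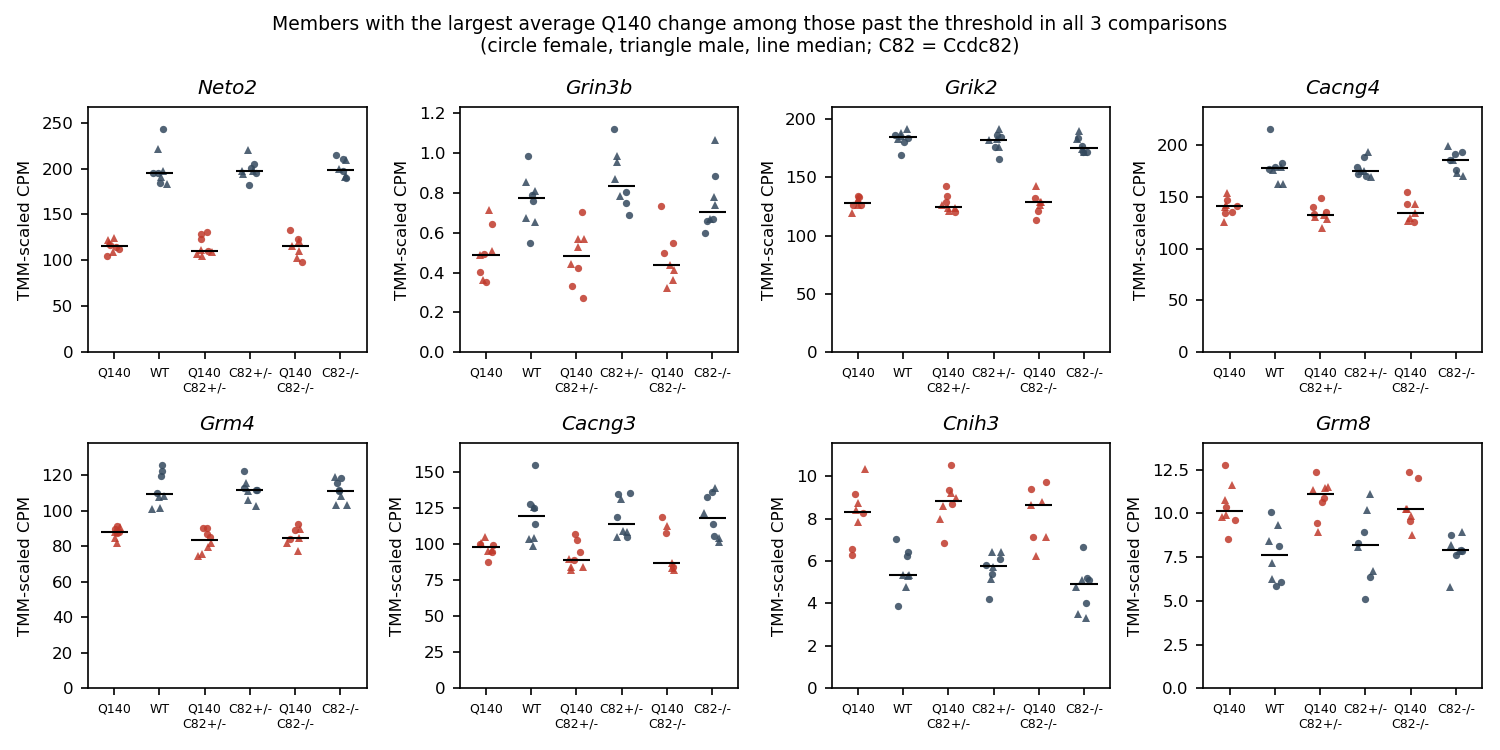
TMM-scaled CPM in all 47 libraries, by group, of the 8 members with the largest average Q140 change among those past the threshold in all 3 comparisons, with Q140 groups left of their controls (circles for females, triangles for males, lines for medians, C82 for Ccdc82). Neto2, Grik2, Cacng4 and Grm4 separate completely in each pair of groups, while Grin3b, Grm8 and Cacng3 overlap.

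Grid1 (chromosome 14, 34820108 to 35583379) encodes a delta receptor subunit that links synapses through cerebellins rather than carrying fast current. It ranged from 86.0 to 96.8 CPM with a median of 92.0 in Q140, against 98.5 to 107.5 CPM with a median of 104.8 in wild type. The groups did not overlap here or on either Ccdc82 background. It fell by 0.17 ± 0.02 (adjusted p = 6.94e-09), 0.26 ± 0.02 and 0.23 ± 0.02.

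Of the 6 tested metabotropic receptors 4 fell and 1 rose in Q140 against wild type, with a median change of -0.25. The same count was found on the Ccdc82+/- background, and 3 fell and 1 rose on the Ccdc82-/- background. Grm5, Grm4 and Grm3 fell in all 3 comparisons and Grm8 rose in all 3. Grm7, a presynaptic receptor, had changes of -0.07, -0.06 and -0.02, none of which passed.

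Grm5 (chromosome 7, 87584168 to 88134907), the receptor coupled to phospholipase C that medium spiny neurons carry at high level, ranged from 426 to 479 CPM with a median of 444 in Q140, against 496 to 584 CPM with a median of 551 in wild type. It separated the groups completely in all 3 comparisons and fell by 0.30 ± 0.03 (adjusted p = 2.9e-11), 0.36 ± 0.03 and 0.28 ± 0.03. Grm4 (chromosome 17, 27422387 to 27521403), a receptor of group III that lowers transmitter release, had 81.9 to 91.4 CPM with a median of 88.0 in Q140, against 101.3 to 125.6 CPM with a median of 109.2 in wild type. It too was without overlap on every background, and fell by 0.35 ± 0.03 (adjusted p = 3.21e-12), 0.43 ± 0.03 and 0.37 ± 0.03.

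Grm8 (chromosome 6, 27275119 to 28135178), of the same group III as Grm4, moved the other way. It had 8.52 to 12.8 CPM with a median of 10.1 in Q140, against 5.85 to 10.1 CPM with a median of 7.65 in wild type, and the groups overlapped in part. It rose by 0.44 ± 0.12 (adjusted p = 0.00275), 0.42 ± 0.12 and 0.41 ± 0.12. Of the group II receptors, Grm3, which astrocytes also carry, fell by 0.19 ± 0.04 (adjusted p = 2.4e-05), 0.21 and 0.17. Grm2, mainly a receptor of axon terminals, had medians of 0.794 CPM in Q140 and 1.28 CPM in wild type. It fell by 0.65 ± 0.16 (adjusted p = 0.00118) and, on the Ccdc82+/- background, by 0.61 ± 0.17, and its change of -0.33 ± 0.17 on the Ccdc82-/- background did not pass (adjusted p = 0.136).

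Counting groups that do not overlap at all gives a test-free view of the same data. In Q140 against wild type 9 members were without overlap, 8 lower (Grik2, Grid1, Grm4, Grm5, Cacng2, Cacng4, Neto1, Neto2) and 1 higher (Cacng7), where 9.77% of all tested genes had no overlap, 5.07% as lower and 4.7% as higher. In Q140 Ccdc82+/- against Ccdc82+/- there were 11, 10 lower and 1 higher (Cnih3), where 10.3% of all genes had none, 5.76% as lower and 4.52% as higher. In Q140 Ccdc82-/- against Ccdc82-/- there were 8, 7 lower and 1 higher (Gria1), where 9.48% of all genes had none, 5.36% as lower and 4.12% as higher. Grik2, Grid1, Grm4, Grm5, Cacng4 and Neto2 had no overlap on any of the 3 backgrounds.

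Genes that work with these receptors were read from 4 lists. Their counts stand against the 34.7% of all genes that passed in Q140 against wild type, 16.5% as lower and 18.2% as higher. Of 18 AMPA receptor partners and biogenesis genes, 9 fell and 5 rose in Q140 against wild type, with a median change of -0.14. Gsg1l, an AMPA receptor auxiliary protein, fell by 0.64 ± 0.04, Nptxr, a neuronal pentraxin receptor, by 0.37 ± 0.04 and Frrs1l, a factor of receptor assembly, by 0.26 ± 0.03, while Olfm3, an olfactomedin, rose by 0.75 ± 0.06. Of 27 scaffold genes, Dlg2 being counted under 2 gene identifiers, 11 fell and 6 rose. Shank3, which ties receptors to the cytoskeleton, fell by 0.50 ± 0.03, Dlgap3 by 0.41 ± 0.04 and Dlg4, which encodes PSD-95, by 0.25 ± 0.02. Lrrtm4, a synaptic adhesion protein, rose by 0.35 ± 0.03.

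Of 17 receptor signalling genes 8 fell and 2 rose, among them Itpr1, the calcium release channel downstream of Grm5, which fell by 0.43 ± 0.03, the calcineurin subunit Ppp3ca, by 0.36 ± 0.03, the phospholipase Plcb1, by 0.36 ± 0.03, and the kinase Camk2b, by 0.28 ± 0.02. Of 14 genes of glutamate transport and metabolism 5 fell and 3 rose. The astrocyte transporter Slc1a2 fell by 0.19 ± 0.03, the neuronal transporter Slc1a1 by 0.17 ± 0.03 and glutamine synthetase, Glul, by 0.16 ± 0.04, while Slc1a6 rose by 0.49 ± 0.09. Each gene named here from the 4 lists passed edgeR's test after adjustment over all genes. Under FPKM the medians of the scaffold and signalling lists changed sign, to 0.03 and 0.02, with 10 scaffold genes higher and 10 lower, and 6 signalling genes higher and 8 lower. All genes shifted too, with far more called higher than lower in Q140 against wild type under FPKM, as given above.

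Markers of cell types were read beside the receptor genes, against the 34.7% of all genes that passed in Q140 against wild type. All 12 shared markers of medium spiny neurons fell in Q140 against wild type, with a median change of -0.48, and their mean level per library was 9.81 to 10.04 log2 CPM in Q140 against 10.31 to 10.50 in wild type. The same 12 fell on both Ccdc82 backgrounds. Of 5 tested markers of the indirect pathway 4 fell, with a median of -0.59, and of 6 of the direct pathway 2 fell and 2 rose, with a median of -0.16. Of 8 astrocyte markers 4 fell (median -0.14), of 6 microglia markers 2 (median -0.07), of 6 oligodendrocyte markers 1, and of 8 interneuron markers 2, while 2 of 6 oligodendrocyte precursor markers rose. Cortical markers split, 4 higher and 3 lower of 12, at mean levels of 0.82 to 1.16 log2 CPM in Q140 and 0.75 to 1.66 in wild type. Choroid plexus markers included 1 that rose among 9 tested, and thalamic or pallidal markers 1 that rose and 1 that fell among 7. The microglia, oligodendrocyte, precursor, interneuron, choroid plexus and thalamic or pallidal lists each passed at a share below that of all genes. In bulk tissue, fewer cells of a type and less RNA per cell cannot be told apart. What part the tissues and cell types of these lists had in the receptor results was not tested. An alternative fit, chosen after seeing the data, took the cortical marker level of each library as a covariate. Most of those markers were low, and their mean level had medians of 1.12 log2 CPM in Q140 Ccdc82-/- and 0.88 in Ccdc82-/-, with overlapping ranges. In that fit 18 members fell and 6 rose in Q140 against wild type, a count given without its share of all genes. On the Ccdc82-/- background Gria3 and Gria4 no longer passed.

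The Ccdc82 mutation was set against its own controls with and without the Q140 allele, and the 2 interactions asked whether the Q140 effect differed by Ccdc82 genotype. None of the 33 members passed edgeR's test in any of these comparisons, and DESeq2 called none either. Over all 19193 genes 0.00521% passed in Ccdc82+/- and Ccdc82-/- against wild type and in Q140 Ccdc82+/- and Q140 Ccdc82-/- against Q140, which was Ccdc82 itself each time, and in the interactions 0 genes passed. Comparisons that use the same wild type or Q140 libraries are not independent of each other.

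At an unadjusted edgeR p under 0.05 there were 7 members in Ccdc82-/- against wild type, 1 in Ccdc82+/- against wild type, 3 in Q140 Ccdc82-/- against Q140 and 2 in Q140 Ccdc82+/- against Q140. Over all 19193 genes these numbers were 804, 628, 712 and 1101. The 7 members of Ccdc82-/- against wild type became 2 with the plate column as a factor and 0 in females only, and ranged from 0 to 9 over the alternatives. The smallest p-values of these were in Gria1 and Grin2b in Ccdc82-/- against wild type, with changes of -0.07 ± 0.02 and -0.17 ± 0.05 (unadjusted p = 0.00159 and 0.00268). In the average over both Htt genotypes only 2 members of Ccdc82-/- were under 0.05, Grm5 with -0.06 ± 0.02 and Grin2b with -0.09 ± 0.04, and none of Ccdc82+/-. The median 95% half-width for a member was 0.088 log2 units in Ccdc82-/- against wild type, and the largest was 0.324. Gria4, nearest to the targeted gene, had an average change of -0.04 in Ccdc82-/- with a 95% interval of -0.074 to 0.001.

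Each interaction had 3 members at an unadjusted p under 0.05 and none after adjustment, where 1011 of 19193 genes were under it for Ccdc82+/- and 826 for Ccdc82-/-. Over the alternatives the members numbered 1 to 5 for Ccdc82+/- and 0 to 4 for Ccdc82-/-. For Neto2 the difference in the Q140 effect was 0.02 (95% interval -0.14 to 0.17) between the Ccdc82+/- and the wild type background, and 0.00 (-0.16 to 0.16) between the Ccdc82-/- and the wild type background. For Grik2 these were 0.01 (-0.08 to 0.11) and 0.04 (-0.06 to 0.13). Gria1, whose rise appeared on the Ccdc82 backgrounds, had a difference of 0.09 (0.03 to 0.15) for Ccdc82-/- with an unadjusted p of 0.00309 and an adjusted p of 0.998. Grin2b had 0.20 (0.04 to 0.35) and 0.17 (0.01 to 0.33), with adjusted p-values of 0.914 and 0.998. That a member passed on one Ccdc82 background and not on another, as with Grin2a, Grik1, Grik4, Grm2 and Cacng8, was therefore not a difference that passed a test.

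**Figure D5:**
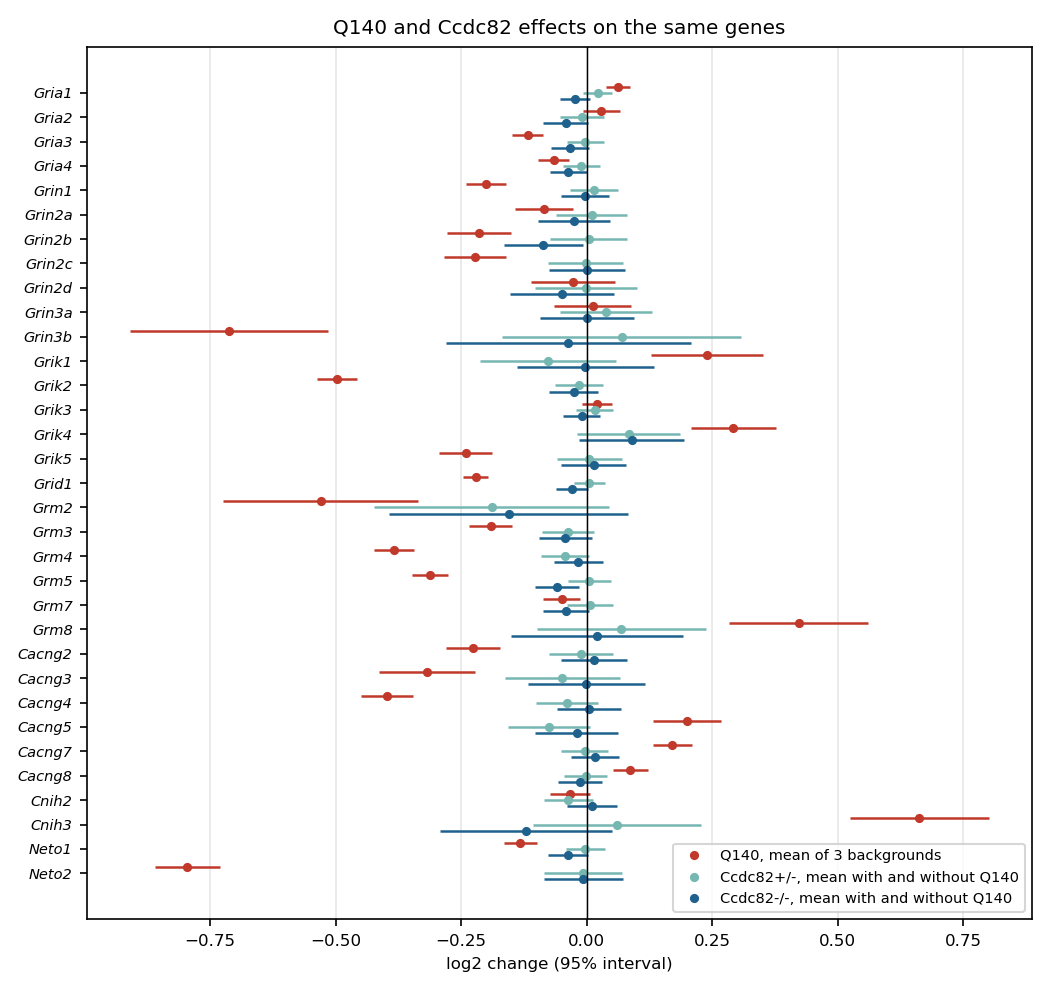
Log2 change of the 33 tested members for the Q140 allele (mean of 3 Ccdc82 backgrounds) and for Ccdc82+/- and Ccdc82-/- (means with and without Q140), with 95% intervals. The Q140 points reach from -0.80 for Neto2 to 0.66 for Cnih3, while no Ccdc82 change passed, and the widest intervals belong to the low members Grm2 and Grin3b.

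Sex was a term of the fit and not a question of the study. Grm4 and Grik1 were higher in females than in males over all groups, and the other 31 tested members did not pass, where 8.67% of all tested genes passed, 4.64% of all as higher in females and 4.03% as lower. Grm4 differed by 0.11 ± 0.02 (SE, log2) with an edgeR adjusted p of 0.000289. Among wild type mice its range was 110.3 to 125.6 CPM in 4 females and 101.3 to 108.1 CPM in 4 males, and among Q140 Ccdc82+/- mice 85.03 to 90.2 CPM in females and 74.7 to 81.6 CPM in males, without overlap in either group. Among Q140 mice it was 87.6 to 91.4 CPM in females and 81.9 to 90.9 CPM in males, which overlapped, as the sexes did in Q140 Ccdc82-/-, Ccdc82+/- and Ccdc82-/- mice. Grik1 differed by 0.20 ± 0.06 with an adjusted p of 0.021. Its median was 3.10 CPM in female and 2.72 CPM in male Q140 mice, and 2.58 CPM in female and 2.33 CPM in male wild type mice. Both calls were also made by DESeq2 and by limma voom with quality weights, and voom called Cacng3 too, which had a change of 0.13 ± 0.05 and an adjusted p of 0.0681 with edgeR.

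Whether the Q140 effect differed between the sexes was tested in a fit with a coefficient per group and sex. None of the 33 members passed with edgeR or with DESeq2, 1 was under an unadjusted p of 0.05 in edgeR (Neto1), and 0 of 19714 genes passed.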

How the data were processed

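The authors deposited raw read counts per gene and FPKM values for 47 libraries of striatal RNA. Per the submitters' processing notes STAR 2.7.5c, SAMtools 1.10 and HTSeq 0.12.3 were used with the builds GRCm38 and mm10. Settings, the strand option of the counting and the annotation release are not given in the sources used here. The deposited FPKM were scaled by gene length and by the library total.

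Groups, sexes, replicate numbers and plate columns came from the labels. The counts of all 47 libraries went through edgeR 4.0.16 (R 4.3.3), with filterByExpr, TMM scaling and a robust quasi-likelihood fit of 6 group means plus sex. P-values were adjusted by Benjamini-Hochberg over 19193 genes, and a second fit by sex covered 19714. The 95% intervals cover the spread between libraries, and that between mice only as far as 1 label is 1 mouse. No 2 replicates agreed within sampling noise. Alternatives used limma 3.58.1, DESeq2 1.42.0 and the FPKM on a log2 scale with a pseudocount of 0.1 or 1.

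Members and lists were chosen with earlier results of these data known. Libraries are described for the 8 members with the largest average Q140 change among those past the threshold in all 3 Q140 comparisons, for the highest member of each family by wild type FPKM, and for Gria4, which lies within 10 Mb of Ccdc82. Up to 4 genes of smallest p are named from each list, and members outside these rules are named with their changes. Positions are from GENCODE M21 and upstream windows from RefSeq.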

Additional observations from a re-analysis of the deposited data

Results flagged for a closer look

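The values of each member in each group were screened for a library far from the rest, as judged by the gap to its neighbour against the range of the group. Of 198 sets 8 held such a library, where chance gives about 1 in 20. Wild type female 1 was high in 2 TARP genes, with 106.2 CPM of Cacng2 where the other 7 wild type libraries had 81.0 to 91.6, and with 215.0 CPM of Cacng4 where the others had 162.0 to 182.4. Both genes fell in Q140, and the nearest wild type values to Q140 were those of other libraries. Q140 Ccdc82+/- female 3 had 96.3 CPM of Gria4 where the others of its group had 87.6 to 91.2, and 62.9 CPM of Cacng8 where the others had 67.2 to 70.2. Q140 Ccdc82+/- female 2 had 97.5 CPM of Grm7, against 83.5 to 90.02 in the others.

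Q140 male 2 had 9.76 CPM of Grin2d, and the others of the group had 7.21 to 8.31. Q140 male 3 had 7.71 CPM of Grik4, and the others had 9.08 to 10.3. Ccdc82-/- male 2 had 5.77 CPM of Grm8, and the others had 7.63 to 8.94.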

How the results depend on the processing

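For 132 Q140 results, 1 for each of 33 members in 4 Q140 comparisons, 16 alternatives were run. DESeq2, voom with quality weights, no sex term, the replicate block and leaving out the library that stands apart moved no call of a member. RLE size factors lost 1 call, the fit of only the groups compared lost 1 and gained 1 (Grm7 in Q140 against wild type), no filter on low counts lost 4, and the plate column as a factor lost 6 and gained 1. With the authors' FPKM 10 changes passed that had not. Not counting 1 reversed change, that of Grm7, 8 no longer passed with a filter and 10 without one. Q140 Ccdc82+/- against Ccdc82+/- then had 10 members higher, against 6, under each FPKM setting, a count given without the FPKM share of all genes. With counts Grm7 passed as lower in the Q140 average, with a change of -0.05. With FPKM this change was reversed, to 0.014 with a pseudocount of 0.1, filtered or not, and to 0.013 with a pseudocount of 1, and did not pass.

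With females only, 29 calls were lost and 1 gained (Grik4 in Q140 against wild type), and with males only 20 were lost, in fits with fewer mice. Members higher in Q140 against wild type were then 2 in females and 3 in males, against 6 with both sexes, and those in Q140 Ccdc82-/- against Ccdc82-/- were 4 and 4, against 8. Members lower in that comparison were 10 in females, against 17. The shares of all genes called in the single-sex fits are not given here, so these drops are not read as a result about the members. Of the 2 alternatives chosen after seeing the data, the cortical marker level as a covariate lost Gria3 and Gria4 on the Ccdc82-/- background, and leaving out wild type female 4 lost Grik1 in Q140 against wild type.

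Replicate numbers were not used as pairs in the main fit. To compare them, the mean of each group and sex was subtracted from the log2 CPM. What remained was correlated between libraries of the same sex from different groups. Libraries with the same number then had correlations of -0.438 to 0.553 (median -0.0081), and those with other numbers a median of -0.0119. Of the 47 libraries 15 correlated best with their own number, a count not set against chance. Whether the numbers pair the samples was not tested. With the replicate block 18 members were lower and 6 higher in Q140 against wild type, a count given without the share of all genes in that fit. Depth limits the members with the fewest reads, and in Q140 against wild type the widest intervals were those of Grin3b and Grm2.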
